A study of Mus musculus with 6 samples.

Results

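Erythroid regulators and red cell proteins are the genes through which blood progenitors become red cells, and 9 of them were taken by symbol from the deposited gene table: Gata1, Klf1, Epor, Tal1, Nfe2, Gfi1b, Alas2, Slc4a1 and Ahsp. A line was found for 8 of the 9, of 23233 gene lines used in all. Ahsp, the alpha-globin chaperone gene, matched no line and is not analysed here. The 8 lines were all among the 13430 lines that the authors had tested. The comparison was between embryonic mouse guts of stage E10.5, with 3 samples labelled Wildtype and 3 labelled Ret null, all of strain C57BL/6J. The series describes the embryos as male and the null samples as homozygous. The Xist and Y-linked values given below do not match an all-male Ret null group. Ret is the signalling receptor for GDNF family ligands on enteric neural crest cells. The labels do not say which sequence the null allele lacks, whether a sample was 1 embryo or several, or whether samples came from separate litters. Polyadenylated RNA was sequenced, and the table gives 1 FPKM value (fragments scaled to transcript length and to library size) for each genotype, combined by the authors over its samples. With no value per sample, the spread between replicates cannot be given, and depth is unknown. Each ± gives a standard error on the log2 scale, obtained by dividing the change by the authors' test statistic, and all fold changes are Ret null over wildtype. A gene is said to rise or fall only if its q in the authors' deposited table was under 0.05, which held for 14.6% of tested genes. The question the series poses is what loss of Ret does to the transcriptome of the early gut.

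Red cells of the embryo arise in successive waves. Primitive erythroblasts form in the yolk sac, enter the circulation while still nucleated and mature there, and later waves of definitive progenitors colonise the fetal liver. In both, GATA1 acts with a complex built around TAL1 to switch on erythroid genes, KLF1 drives the globin, heme and membrane genes, GFI1B represses genes of other fates, and NFE2 acts at the globin locus control region. Signalling from EPOR, the erythropoietin receptor, keeps progenitors alive. ALAS2 carries out the first and limiting step of erythroid heme synthesis, and SLC4A1 (band 3) is the anion exchanger of the red cell membrane.

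The threshold of q under 0.05 divided the erythroid genes into 2 sets, and differences between the sets were not tested. Gata1, Klf1, Epor and Gfi1b rose in Ret null gut, between 1.83-fold and 3.44-fold. Tal1, Nfe2, Alas2 and Slc4a1 did not pass the test, with ratios between 0.824 and 1.12. Thus 4 of 8 tested genes (50.0%) rose and 0 fell, where 5.69% of all tested genes rose and 8.88% fell. The median log2 fold change of the 8 was 0.52, against 0.01 over all tested genes. Counting unadjusted p-values under 0.05 in the authors' Cuffdiff test, 4 were higher and 1, Alas2, was lower, against 9.91% and 13.5% of all tested genes. For the 4 risers the q-values of the table are smaller than the test statistics would give as normal deviates. With p taken from the statistic in that way (the normal p) and adjusted over all tested genes, 1 of the 8, Gata1, was higher and 0 were lower, where 1.72% of all tested genes were higher and 2.78% lower. With q under 0.01 the count of rises was also 1 (3.72% of all tested genes). It was 4 with q under 0.1 (6.96%), with a minimum change of 1.5-fold (3.4%) and with 1 FPKM or more in a genotype (5.7%).

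**Figure D1:**
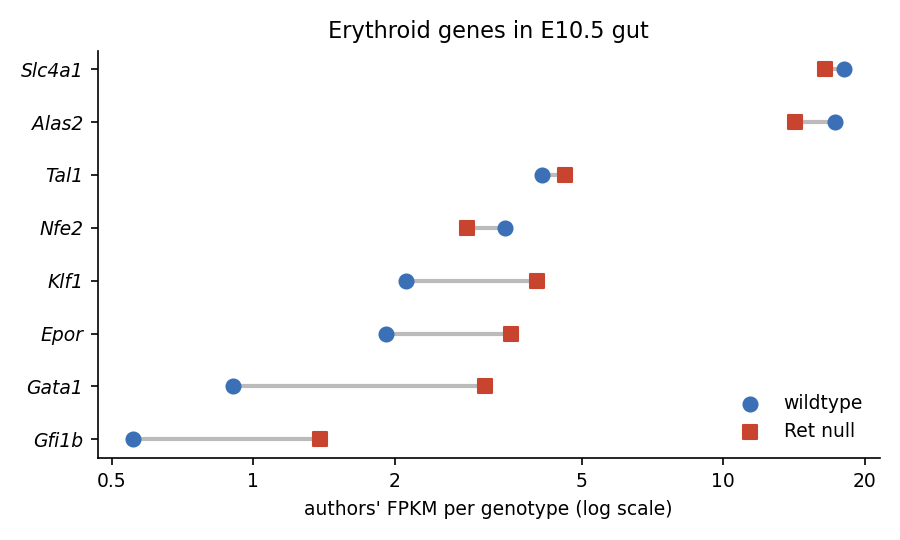
The authors' FPKM value of each erythroid gene (rows, ordered by mean level) in wildtype (blue circles) and Ret null gut (red squares) on a log axis. The 4 genes at the bottom, from Klf1 at 2.12 down to Gfi1b at 0.556 FPKM in wildtype, have Ret null values to the right, and the 4 above them lie close to their wildtype values.

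Gata1, the X-linked gene of the master erythroid factor, had a wildtype value of 0.906 FPKM and a Ret null value of 3.12 FPKM. This was a 3.44-fold rise and the largest of the 8, or 1.78 ± 0.49 on the log2 scale. In the authors' deposited table q was 0.000775, the smallest q that the table holds, and the adjusted normal p was 0.00962. With 1 FPKM added to both values, which damps changes of genes with low levels, the log2 fold change was 1.11. The Ret null value also held RNA of Xist, the long noncoding RNA of X inactivation in females, at 31.8 FPKM against 0.136 in wildtype. The Y-linked genes Ddx3y, Eif2s3y, Kdm5d and Uty were 1.64-fold to 1.99-fold lower in Ret null, and Usp9y was not tested. Of 473 tested genes of chromosome X, 5.29% rose. These values do not match the description of all embryos as male. The part of embryo sex in the rise of Gata1, or in any other change given here, was not tested.

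Gfi1b, which encodes a zinc finger repressor acting downstream of GATA1, had the lowest level of the 8. Its wildtype value was 0.556 FPKM and its Ret null value 1.39 FPKM. The rise was 2.50-fold, or 1.32 ± 0.71 on the log2 scale, and q was 0.0167 in the authors' deposited table. Its error was the widest of the 8, and the 95% interval from the implied error ran from -0.07 to 2.72 and included 0. The adjusted normal p was 0.528. The gene's line covers the annotated gene on chromosome 2, 28609450 to 28621982 (mm10).

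Klf1, the gene of the erythroid Krüppel-like factor, went from a wildtype value of 2.12 FPKM to a Ret null value of 4.01 FPKM. It rose 1.89-fold, or 0.92 ± 0.42 on the log2 scale, and q was 0.0113 in the authors' deposited table. Epor went from 1.92 to 3.53 FPKM, a 1.83-fold rise of 0.87 ± 0.41 on the log2 scale, with q = 0.0133. The pair had like levels in both genotypes and like changes. Neither passed with the normal p, at adjusted values of 0.321 for Klf1 and 0.36 for Epor.

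Tal1, whose protein binds DNA beside GATA1, had values of 4.11 FPKM (wildtype) and 4.61 FPKM (null), a log2 fold change near 0 (0.17 ± 0.25, q = 0.609 in the authors' deposited table). Its 95% interval ran from -0.33 to 0.66. Nfe2, also made by platelet precursors, had values of 3.44 FPKM (wildtype) and 2.85 FPKM (null) (-0.27 ± 0.40, q = 0.607 in the authors' deposited table). Its interval, from -1.05 to 0.51, is wide.

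The 2 red cell products had the highest levels of the 8 in both genotypes. Slc4a1 had 18.1 FPKM in the wildtype value and 16.5 in the null value (-0.13 ± 0.18, q = 0.548 in the authors' deposited table). Alas2 stood at 17.3 and 14.2 FPKM (-0.28 ± 0.23, q = 0.155 in the authors' deposited table). Their 95% intervals, from -0.50 to 0.23 for Slc4a1 and from -0.74 to 0.18 for Alas2, overlap those of Klf1 (0.09 to 1.75), Epor (0.06 to 1.69) and Gfi1b (-0.07 to 2.72) and not that of Gata1 (0.82 to 2.75). Differences in change between genes were not tested. The Slc4a1 line covers chromosome 11, 102348820 to 102365281, and the Alas2 line chromosome X, 150547417 to 150570622. The Alas2 span overlaps Apex2 on the opposite strand in the GENCODE annotation. The labels do not say whether reads were counted by strand. None of the other 7 spans overlaps another annotated gene.

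**Figure D2:**
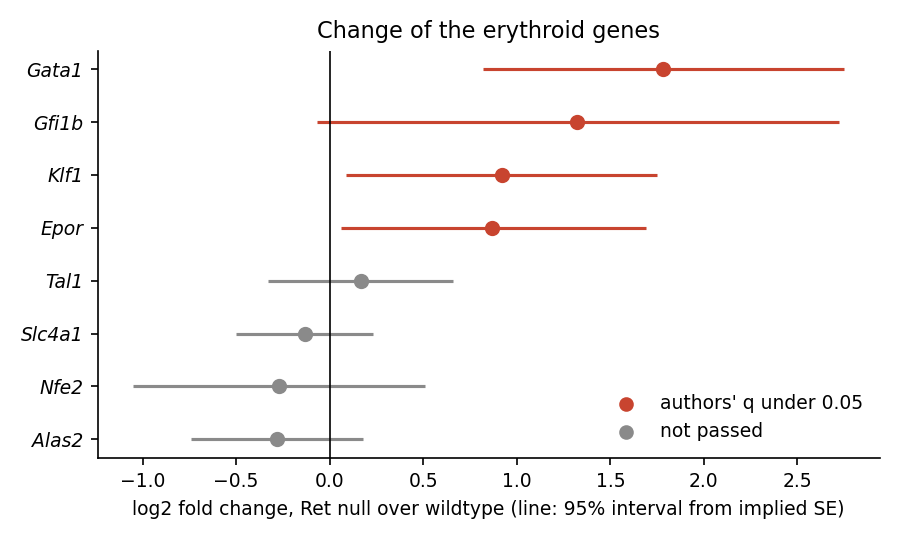
Log2 fold change of each erythroid gene, Ret null over wildtype, with the 95% interval from its standard error. Red genes passed the authors' q under 0.05 and grey genes did not. The interval of Gata1 starts at 0.82, and that of Gfi1b includes 0.

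The levels of regulators and products were set against each other in each genotype. FPKM is scaled by transcript length, so levels of different genes can be compared. In wildtype the Alas2 level was 19.1 times that of Gata1, and in Ret null 4.56 times. The Slc4a1 level was 8.55 times that of Klf1 in wildtype and 4.12 times in Ret null. The ratio of Slc4a1 to Alas2 was 1.05 in wildtype and 1.16 in Ret null. The levels of the 6 regulators (the 5 transcription factors and Epor) summed to 13.1 and 19.5 FPKM, a ratio of 1.49. The levels of the 4 risers, a set chosen by their rise, summed to 5.51 FPKM for wildtype and to 12.1 FPKM for the null, a ratio of 2.19. Those of the other 4 summed to 42.9 and 38.2 FPKM, a ratio of 0.89. No error can be given for these ratios. In bulk tissue, fewer cells of a type and less RNA per cell cannot be told apart.

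The order of the levels was read in each genotype. In wildtype it ran from Slc4a1 through Alas2, Tal1, Nfe2, Klf1, Epor and Gata1 to Gfi1b, so the 4 risers were the 4 lowest. The wildtype level is also the divisor of each fold change. The low rank of the risers in wildtype is therefore not a separate observation from their rise. In Ret null Klf1, Epor and Gata1 stood above Nfe2. The table gives no error of a level, so whether neighbours in this order differ was not tested. The authors' test called more genes at low levels: of 3759 tested genes with a mean between 0.5 and 5 FPKM, 8.03% rose and 14.9% fell. The median implied error was 0.41 in that range and 0.20 from 10 to 20 FPKM.

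**Figure D3:**
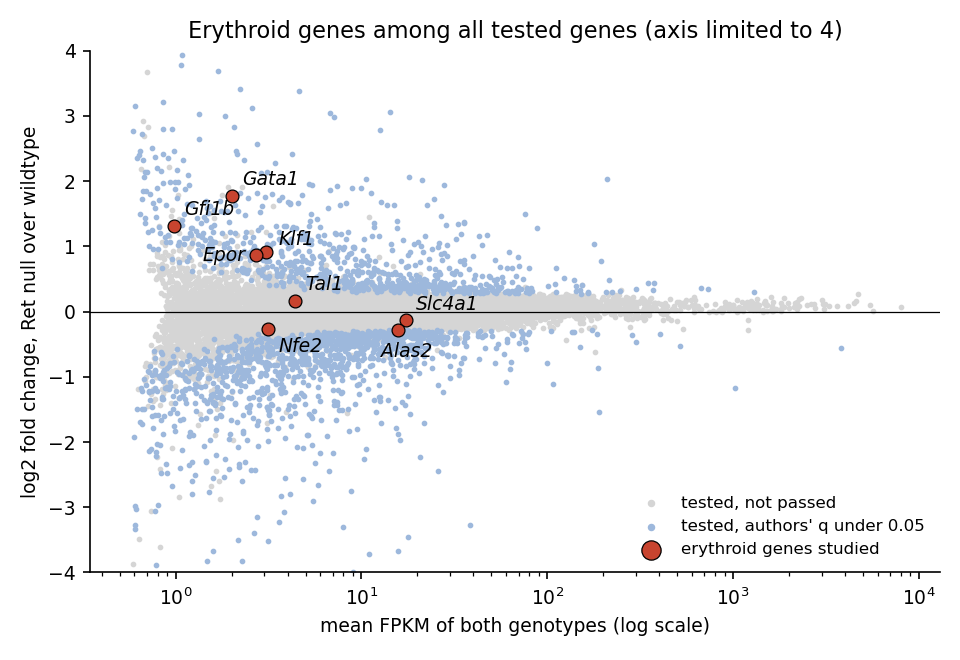
Log2 fold change against mean FPKM (log axis) for all tested genes, with genes past q under 0.05 in blue, others in grey and the 8 erythroid genes in red. Gata1, Gfi1b, Klf1 and Epor lie in the upper band of genes with low levels, and Slc4a1 and Alas2 near 0 among genes of higher level. Changes beyond 4 on the log2 scale are not drawn.

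Since the risers include 3 transcription factors that bind regulatory DNA, the bases before an annotated start of each riser are shown. The window of Alas2, which did not pass, is shown for contrast. RefSeq (GRCm38.p6, the build of mm10) gave windows for 6 of the 8 genes. The RefSeq Gata1 gene runs on past its window to 7976663, and the bases upstream of that end were not searched. The Klf1 window overlaps the span of the gene's line, which starts at 84901928. Each sequence is the 250 bases before an annotated start, 5′ to 3′ on the gene's strand, with matches to the GATA motif in capitals.
Gata1 (chrX:7967911-7968160, minus strand): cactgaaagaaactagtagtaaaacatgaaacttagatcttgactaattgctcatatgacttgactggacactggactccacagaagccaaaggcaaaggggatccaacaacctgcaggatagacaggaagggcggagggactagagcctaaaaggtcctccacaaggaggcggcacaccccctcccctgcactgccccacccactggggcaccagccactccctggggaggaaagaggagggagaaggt
Klf1 (chr8:84901732-84901981, plus strand): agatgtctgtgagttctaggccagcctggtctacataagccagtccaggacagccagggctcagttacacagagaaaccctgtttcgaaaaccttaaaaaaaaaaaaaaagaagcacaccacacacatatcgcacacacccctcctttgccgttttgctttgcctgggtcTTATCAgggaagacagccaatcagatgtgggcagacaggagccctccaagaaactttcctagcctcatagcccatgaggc
Epor (chr9:21963577-21963826, minus strand): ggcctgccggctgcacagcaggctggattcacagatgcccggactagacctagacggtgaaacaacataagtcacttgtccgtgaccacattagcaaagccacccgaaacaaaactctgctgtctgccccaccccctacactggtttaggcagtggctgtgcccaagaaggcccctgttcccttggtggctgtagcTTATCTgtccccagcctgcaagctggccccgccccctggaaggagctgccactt
Gfi1b (chr2:28621983-28622232, minus strand): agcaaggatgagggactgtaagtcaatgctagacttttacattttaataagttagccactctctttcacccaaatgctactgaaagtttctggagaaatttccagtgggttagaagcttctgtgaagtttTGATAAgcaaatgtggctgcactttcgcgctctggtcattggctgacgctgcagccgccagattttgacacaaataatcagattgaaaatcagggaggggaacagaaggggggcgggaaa
Alas2 (chrX:150547167-150547416, plus strand): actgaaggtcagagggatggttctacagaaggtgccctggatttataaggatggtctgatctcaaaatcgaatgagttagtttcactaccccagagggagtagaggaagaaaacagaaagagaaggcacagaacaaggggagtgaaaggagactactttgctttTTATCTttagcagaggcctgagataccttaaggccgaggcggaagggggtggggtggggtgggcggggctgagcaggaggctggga

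The GATA motif was searched on both strands as the letters GATA with A or T before them and A or G after them. A match stands in the windows of Klf1, Epor, Gfi1b and Alas2, and in 1 of 2 windows of Tal1, but not in that of Gata1. Over all 32851 windows of that length 26.5% held one. The matches start 80 bases before the start in Klf1, 54 in Epor, 120 in Gfi1b and 86 in Alas2. The C-rich Krüppel-like factor (KLF) motif CCNCNCCC, on either strand and with overlapping matches counted, occurred 3 times before Gata1, 4 times each before Epor and Alas2 and 2 times before Gfi1b. It did not occur before Klf1, and 45.9% of all windows held it. The motif TGANTCA, bound by NFE2 and by AP-1 factors, was in none of the 7 windows of these genes and in 6.75% of all windows. The KLF motif occurred 0 times in the Tal1 window that held the GATA match and 4 times in the other.

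Other erythroid transcription factors and cofactors held calls in both directions. Of 15 tested genes 5 rose and 2 fell (46.7% called, against 14.6% of all tested genes), with a median log2 fold change of 0.24. Ikzf1, encoding the lymphoid and erythroid factor Ikaros, rose from 0.85 to 1.51 FPKM (0.83 ± 0.41, q = 0.00797 in the authors' deposited table). Bcl11a, a repressor of embryonic globin genes that neurons also express, rose from 13.9 to 18.4 FPKM (0.41 ± 0.23, q = 0.0175). Gata2, which GATA1 replaces at its sites as progenitors mature, fell from 15.6 to 10.1 FPKM (-0.63 ± 0.21, q = 0.000775). The Gata2 level was 17.2 times that of Gata1 in wildtype and 3.23 times in Ret null. Sox6, a factor of red cell and muscle maturation, fell from 4.27 to 2.73 FPKM (-0.64 ± 0.23, q = 0.000775). Myb, a progenitor factor chosen after its values were seen, rose from 1.92 to 2.98 FPKM (q = 0.0232). With the normal p 0 members of the list were higher and 0 lower. Gata2 and Sox6 are also made outside blood, and which cells of the gut their RNA came from was not tested.

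In erythropoietin and stem cell factor signalling 1 of 13 tested genes rose and 1 fell (15.4% called, median 0.04). That share is close to the 14.6% called of all tested genes. Kit, the receptor of stem cell factor on progenitors and on other cells, rose from 17.4 to 23.1 FPKM (0.42 ± 0.18, q = 0.00263 in the authors' deposited table). Its ligand gene Kitl fell from 12.0 to 9.28 FPKM (-0.38 ± 0.18, q = 0.0101). Erythropoietin itself, Epo, was listed at 0.16 and 0.269 FPKM and had not been tested. With the normal p 0 members were called in either direction.

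Of 13 tested genes of heme synthesis and porphyrin transport 3 rose and 0 fell (23.1% called against 14.6% of all tested, median 0.12). In the authors' Cuffdiff test 0 were lower by unadjusted p under 0.05, and 0 by the normal p. Alad, the enzyme after ALAS2 in the pathway, rose from 9.95 to 19.1 FPKM (0.94 ± 0.20, q = 0.000775 in the authors' deposited table). Cpox, a later enzyme of the pathway, rose from 8.99 to 14.2 FPKM (0.66 ± 0.20, q = 0.000775), and the mitochondrial carrier gene Slc25a39 from 54.5 to 67.8 FPKM (0.31 ± 0.17, q = 0.0232). Alad and Cpox also passed with the normal p. Alas1, the form of the first enzyme used by all tissues, did not pass, at 15.9 and 17.1 FPKM (0.10 ± 0.20). Of 12 tested genes of iron uptake and handling 2 rose and 0 fell (16.7% called, median 0.08). That share is close to the 14.6% called of all tested genes. The 2 that rose were the transferrin receptor gene Tfrc (0.35 ± 0.17, q = 0.00797) and the iron exporter gene Slc40a1 (0.31 ± 0.18, q = 0.0414). In that list 2 were lower by unadjusted p under 0.05 in the authors' Cuffdiff test, and with the normal p 0 were called.

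Of 23 tested genes of the red cell membrane and its skeleton 4 rose and 1 fell (21.7% called against 14.6% of all tested, median 0.09). With the normal p 1 was higher and 0 lower. Icam4, an adhesion protein gene of erythroid cells, rose from 0.488 to 1.88 FPKM (1.95 ± 0.76, q = 0.0309 in the authors' deposited table) and Rhag, of the Rhesus complex, from 1.54 to 2.73 FPKM (0.83 ± 0.42, q = 0.0229). Add2, encoding an adductin that neurons also make, fell from 4.74 to 3.16 FPKM (-0.58 ± 0.30, q = 0.00517). Icam4, Rhag and Add2 did not pass with the normal p (adjusted values of 0.161, 0.431 and 0.463). The other 18, among them the spectrin and ankyrin genes, did not pass. Of 17 tested red cell enzymes and maturation genes 4 rose and 0 fell (23.5% called against 14.6% of all tested, median 0.15). Lower members numbered 0 by unadjusted p under 0.05 in the authors' Cuffdiff test and 0 by the normal p. Hemgn, a nuclear protein gene of blood progenitors, rose 3.06-fold from 1.44 to 4.41 FPKM (1.62 ± 0.41, q = 0.000775). Pklr, the pyruvate kinase gene of red cells and of liver, rose 5.96-fold from 0.783 to 4.66 FPKM (2.57 ± 0.48, q = 0.000775). Car2, a carbonic anhydrase gene, and Blvrb, a biliverdin reductase gene, rose by 0.72 ± 0.21 (q = 0.000775) and 0.50 ± 0.23 (q = 0.0149) on the log2 scale. Hemgn, Pklr and Car2 also passed with the normal p.

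**Figure D4:**
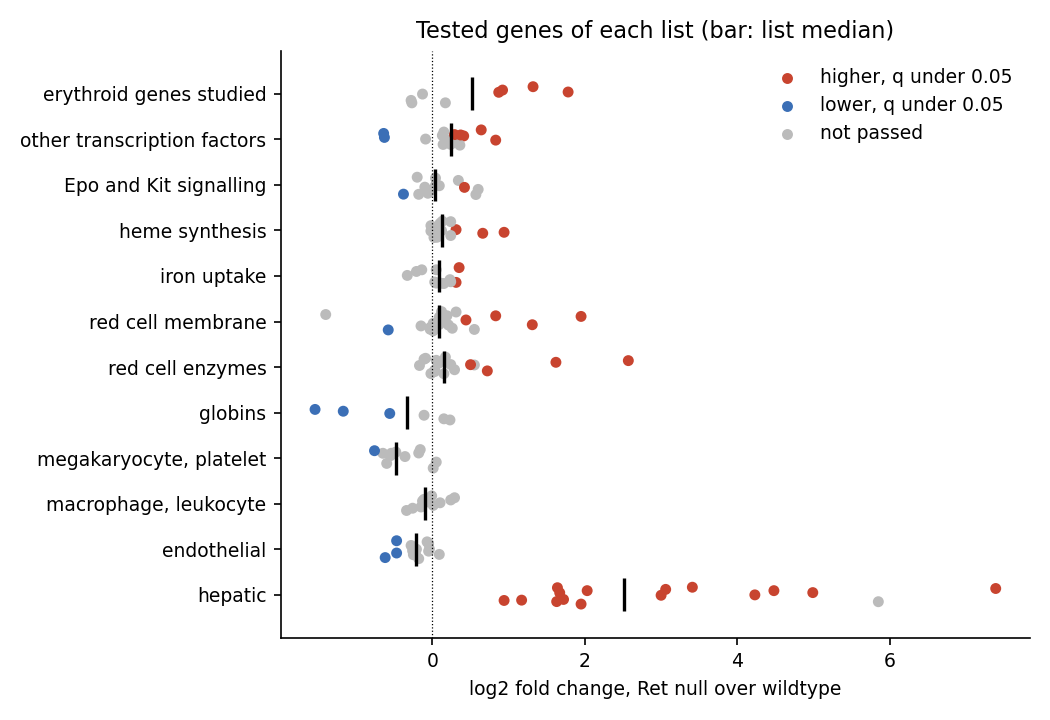
Log2 fold change of each tested gene (points) by gene list, with the list median as a black bar, and red and blue for genes that rose and fell. The erythroid genes studied have a median of 0.52, the globins of -0.34 and the hepatic markers of 2.52.

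Of 6 tested globin lines 3 (50.0%) fell and 0 rose in the authors' Cuffdiff test, where 8.88% of all tested genes fell. That test had 1 globin line higher by unadjusted p under 0.05. By the normal p 2 (Hba-x and Hbb-bh1) were lower and 0 higher, and Hbb-y had an adjusted value of 0.0996. The embryonic globin genes Hba-x (1408 to 627 FPKM), Hbb-bh1 (281 to 96.8 FPKM) and Hbb-y (4532 to 3070 FPKM) fell by 1.17, 1.54 and 0.56 on the log2 scale, with q = 0.000775, 0.000775 and 0.00468 in the authors' deposited table. The lines of the adult-type genes, Hba-a1,Hba-a2 (2 lines whose near-identical copies can share reads) and Hbb-b1,Hbb-b2, had log2 fold changes between -0.11 and 0.23 and did not pass.

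Markers of other tissues and blood lineages were read from the same 2 values, where 5.69% of all tested genes rose and 8.88% fell. Of 16 tested hepatic markers 15 rose and 0 fell, and their levels summed to 61.9 FPKM for wildtype and 454 FPKM for the null. Alb was at 0.433 and 72.8 FPKM and Afp at 4.68 and 148 FPKM, and no hepatic marker was at 0 in either genotype. Among somite and skeletal muscle markers 8 of 8 tested fell, with sums of 97.0 and 6.09 FPKM. Fetal liver is a site of red cell formation, and the part of the hepatic difference in the rises of Gata1, Klf1, Epor and Gfi1b was not tested. Of 11 tested megakaryocyte and platelet markers 1 (9.09%), Vwf, fell (9.92 to 5.85 FPKM) and 0 rose. That share is close to the 8.88% of all tested genes that fell. The median of this list was -0.48, with sums of 65.2 and 47.3 FPKM. Of 14 endothelial markers 3 (Emcn, Tek and Kdr) fell and 0 rose, with sums of 336 and 288 FPKM, and with the normal p 0 were lower. Of 12 tested macrophage and leukocyte markers 0 passed the authors' Cuffdiff test, 0 had an unadjusted p under 0.05 and 0 passed with the normal p, and their levels summed to 99.1 and 98.4 FPKM. The mast cell gene Cpa3 rose from 0.868 to 1.92 FPKM (q = 0.0379 in the authors' deposited table, adjusted normal p 0.463). Of 8 mast cell and basophil markers 5 had not been tested. In wildtype Fcer1a and Tpsb2 were at 0, and in Ret null Mcpt4 and Tpsb2. Of 8 tested lines of the blood progenitor list 2 (Mecom and Hhex) rose and 1 (Angpt1) fell, and with the normal p 0 were called in either direction. Which cells of the gut the RNA of Mecom, Hhex and Angpt1 came from was not tested.

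The targeted gene, Ret, had a wildtype value of 8.80 FPKM and a Ret null value of 0.0354 FPKM, in the direction of the labels.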

How the data were processed

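Messenger RNA was measured in 3 wildtype and 3 Ret null gut samples. The submitters' processing notes list TopHat2, Cufflinks, Cuffdiff, Picard and mm10, while no setting or annotation is given in the sources used here. The FPKM values, 1 per genotype, were deposited by the authors and are printed with no SD or n. The p-values and q-values and the test statistic (a score) come from the authors, per the file headers. Of 23234 lines 1 held 2 records run together and was left out. Because 590 deposited log2 cells hold an error text, fold changes were computed anew from FPKM, and none was more than 0.12 from its deposited value. Benjamini-Hochberg adjustment of the authors' p over the 13430 tested lines gave their q to within 5.9e-05.

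The implied standard error is the log2 fold change divided by the test statistic, and 95% intervals are 1.96 of it to each side. Calls took the authors' q under 0.05. No test over samples could be run. The computation of the normal p, in Python 3.11.15 with scipy 1.17.1, was tested on simulated data with normal errors. Whether the authors' statistic is a normal deviate was not tested. A line with no statistic counts as not called. Lines carrying a listed and an unlisted symbol were left out of lists. The erythroid genes, the 15 other lists and the tests were chosen with earlier results of these data known. Named genes were the 8 erythroid genes, Ret, Xist and Y-linked genes, all globins, and from each list up to 4 called genes, ranked by q and then by size of change, or, with no call, the 2 with the highest mean. Myb, Epo, Alas1 and the spectrin and ankyrin genes were chosen after their values were seen. Some of what the rule takes is not reported here. Alternatives tried were q under 0.01 and 0.1, the normal p, at least 1.5-fold, at least 1 FPKM, 1 or 0.1 FPKM added, centring on the median and rescaling without globins.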

Additional observations from a re-analysis of the deposited data

How the results depend on the processing

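The number of erythroid genes that rose was 4 with q under 0.05 or 0.1 in the authors' deposited table, with at least 1.5-fold change and with at least 1 FPKM in a genotype, and was 1 with q under 0.01 and 1 with the normal p; the number that fell was 0 under all of these. Over all tested genes 764 rose; 499 did with q under 0.01, 231 with the normal p and 456 with at least 1.5-fold change. Falls numbered 1192, or 373 with the normal p and 702 with at least 1.5-fold change. The log2 fold change of none of the 8 erythroid genes changed sign with 1 or 0.1 FPKM added, with centring on the median or with rescaling without globins, which lowered every value by 0.06. The largest move, of 0.704, was that of Gfi1b with 1 FPKM added (from 1.32 to 0.62). The authors' values are pooled by genotype, so counting error, the spread between embryos and the weight of any 1 sample cannot be had, and leaving out replicates could not be run. No paired analysis was possible because the table holds 1 value per genotype and no value per sample.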
